A study of Mus musculus with 9 samples.

Results

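The 10 genes described here encode centrosomal, spindle and cytokinesis proteins that underlie inherited primary microcephaly, namely Aspm, Wdr62, Cdk5rap2, Cenpj, Stil, Cep152, Cep135, Cep63, Mcph1 and Cit. They were chosen by name, with earlier results of these data known. All 10 were found among the 39184 genes listed in both comparison tables and among the 18928 genes tested in both. RNA was sequenced from cortices of mouse embryos of 3 genotypes at HAR1984, named as a human accelerated region, a class of conserved elements with many human-specific changes. Control embryos were homozygous for the mouse element (Mm/Mm), the CRISPR knock-in embryos were heterozygous for a human and a mouse allele (Hs/Mm), and in the CRISPR deletion embryos both copies were removed (del/del). Each genotype had 3 libraries, which the design text calls biological replicates. All libraries are labelled E16.5 except deletion replicate 3, which is labelled E16.6, and the sources used here do not say how many animals a library came from or how many founder lines were used. The labels name the cells neural progenitors, but each of the 11 neuronal marker genes tested had a mean normalised count of at least 3200, and meningeal, vascular and blood cell markers were also present, so the RNA came from more cell types than the label names.

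Cortical progenitors divide at the ventricular surface, where each mitotic spindle is built from a pair of centrosomes. A centrosome holds centrioles, which are copied once in each cell cycle, and a pericentriolar material that nucleates microtubules. Loss of these proteins shortens the supply of progenitors, by delayed mitosis, early differentiation or cell death, and gives a small brain in humans.

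Genes are given with their Ensembl identifiers from the tables and their GENCODE vM21 positions on mm10. Aspm (ENSMUSG00000033952), a spindle pole protein that binds microtubule minus ends, spans chr1:139454772-139494091 on the plus strand. Wdr62 (ENSMUSG00000037020), a WD-repeat protein of the spindle pole, spans chr7:30240138-30280419 on the minus strand. Cdk5rap2 (ENSMUSG00000039298), which anchors γ-tubulin complexes in the pericentriolar material, spans chr4:70216856-70410443 on the minus strand. Cenpj (ENSMUSG00000064128), which controls centriole length, spans chr14:56526761-56575425 on the minus strand. Stil (ENSMUSG00000028718), which joins the cartwheel that starts a new centriole, spans chr4:115000159-115043196 on the plus strand. Cep152 (ENSMUSG00000068394), which brings the kinase Plk4 to the mother centriole, spans chr2:125563088-125625113 on the minus strand. Cep135 (ENSMUSG00000036403), a structural protein of the cartwheel, spans chr5:76588698-76646466 on the plus strand. Cep63 (ENSMUSG00000032534), the binding partner of Cep152, spans chr9:102584588-102626534 on the minus strand. Mcph1 (ENSMUSG00000039842), which holds back chromosome condensation until mitosis, spans chr8:18595131-18803189 on the plus strand. Cit (ENSMUSG00000029516), which encodes citron kinase of the midbody, spans chr5:115845278-116008947 on the plus strand. The 10 genes lie on 8 chromosomes, with Cdk5rap2 and Stil both on chromosome 4 and Cep135 and Cit both on chromosome 5.

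Levels are given as baseMean, the authors' deposited mean of normalised counts over all samples, divided by the length of each gene's merged exons in GENCODE vM21 (mm10). Cdk5rap2 had the highest level per length, with 408 counts per kb. It was followed by Aspm at 273 counts per kb and by Cenpj at 254 counts per kb. The other 7 genes lay between 67.6 counts per kb (Cit) and 139 counts per kb (Stil). Against 14366 protein-coding genes the level of Aspm was in the middle, above 50.9% of them, that of Cdk5rap2 was above 62.6% and that of Cit above 20.8%. The highest level was 6.03 times the lowest with exon length and 8.82 times with coding length. The order below Cdk5rap2 depended on the length used. With coding length Cep63 came second at 541 counts per kb, ahead of Aspm at 338. The lowest was then Wdr62 at 108.5 counts per kb, below Cit at 179.

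Part of the exon sequence of 4 of the 10 genes is shared with another gene. In Cdk5rap2 365 bases, 2.81% of its exon length, overlap the pseudogene Ywhaq-ps3 on the same strand, which had a baseMean of 2441. The overlaps of Mcph1 with Gm16725 (190 bases), Wdr62 with Thap8 (264 bases) and Cep63 with Anapc13 (239 bases) lie on opposite strands. No source used here says how the authors assigned such reads, so these 4 levels are less certain than the others.

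**Figure D1:**
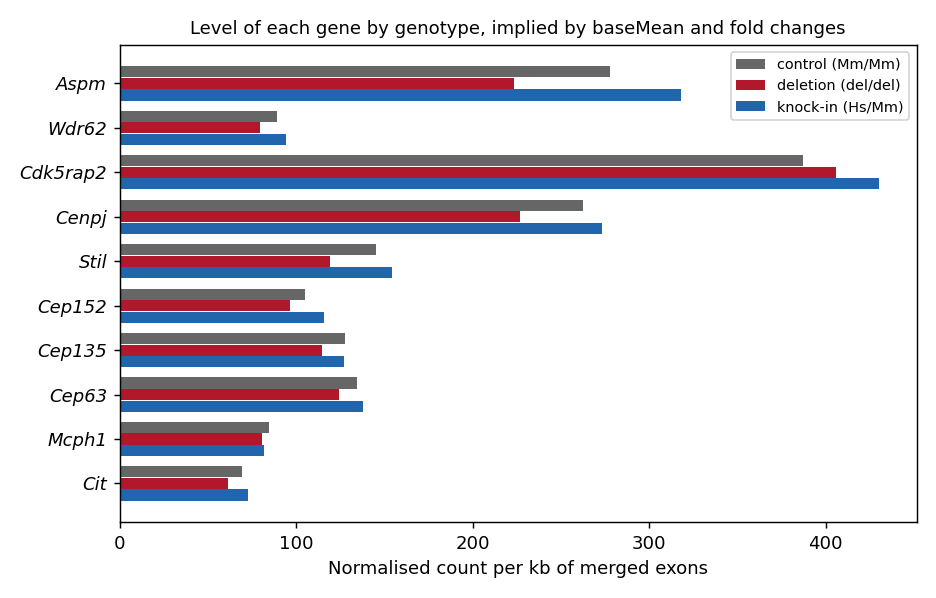
Normalised count per kb of merged exons for each gene (horizontal axis) in control, deletion and knock-in, computed from baseMean and the fold changes of both comparisons, so the bars carry no error of their own. Cdk5rap2, Aspm and Cenpj have the longest bars in every genotype, and Cit has the shortest.

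Values of single libraries cannot be shown, because the deposited columns that carry library names hold baseMean times a random number. The mean of each genotype was therefore computed from baseMean and both fold changes, taking baseMean as the mean over 3 groups of equal size. For Aspm this gave normalised counts of 3217 for control, 2588 for deletion and 3686 for knock-in embryos. For Stil it gave 840, 691 and 892 in the same order. For Cdk5rap2 the counts were 5036, 5283 and 5595, and for Mcph1 661, 628 and 636. Summed over the 10 genes the counts were 15489 for control, 14322 for deletion and 16779 for knock-in embryos.

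Promoters were examined for sequences that often lie near the start of genes whose expression follows the cell cycle. The letters searched, on both strands, were TTTGAA, the cell cycle genes homology region (CHR) recognised by the DREAM complex, its variant TTCGAA, the NF-Y box CCAAT, and the E2F sequences TTTGGCGC, TTTCCCGC and TTCCCGCC. The RefSeq windows (GRCm38.p6) run from 250 bases before the start site to 50 bases after it and were held for 9 of the 10 genes, all but Mcph1. Shown are the windows of Aspm, which had the largest difference between deletion and knock-in, of Cep152, whose difference was largest relative to its SE, and of Cdk5rap2, the only member above control in the deletion. Each reads 5′ to 3′ on the strand of the gene, with the letters found in capitals.
Aspm, chr1:139454523-139454822, plus strand: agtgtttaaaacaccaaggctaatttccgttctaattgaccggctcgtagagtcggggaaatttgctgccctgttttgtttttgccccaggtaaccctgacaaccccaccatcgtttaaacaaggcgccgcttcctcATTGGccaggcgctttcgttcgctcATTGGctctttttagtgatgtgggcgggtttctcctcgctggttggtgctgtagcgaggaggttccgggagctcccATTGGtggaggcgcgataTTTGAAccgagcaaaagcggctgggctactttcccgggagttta
Cep152, chr2:125625064-125625363, minus strand: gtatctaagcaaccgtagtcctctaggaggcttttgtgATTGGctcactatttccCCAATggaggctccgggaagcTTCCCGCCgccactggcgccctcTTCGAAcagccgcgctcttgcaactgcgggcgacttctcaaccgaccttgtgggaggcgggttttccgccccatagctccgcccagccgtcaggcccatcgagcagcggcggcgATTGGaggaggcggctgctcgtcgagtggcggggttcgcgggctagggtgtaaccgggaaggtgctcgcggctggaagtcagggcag
Cdk5rap2, chr4:70410386-70410685, minus strand: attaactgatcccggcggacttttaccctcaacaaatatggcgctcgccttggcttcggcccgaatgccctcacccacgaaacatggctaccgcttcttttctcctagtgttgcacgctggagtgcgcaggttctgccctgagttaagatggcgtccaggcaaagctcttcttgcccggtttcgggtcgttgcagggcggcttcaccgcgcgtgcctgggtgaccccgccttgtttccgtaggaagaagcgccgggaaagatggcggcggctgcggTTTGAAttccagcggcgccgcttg

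The Aspm window holds 3 CCAAT boxes, all on the opposite strand, and TTTGAA at bases 7 to 12 after the start site. The Cep152 window holds 3 CCAAT boxes, TTCGAA and TTCCCGCC, which do not overlap. In Cdk5rap2 TTTGAA alone was found, at bases 27 to 32 after the start site. Over the 9 genes, CCAAT was found in 5 (Aspm, Cep135, Cep152, Stil and Wdr62), against 37.4% of 32851 promoter windows of the same length. A CHR or its variant was found in 3 genes against 19.2% of all windows, and an E2F sequence in 2, Cep152 and Wdr62, against 3.21%. The windows of Cenpj, Cep63 and Cit hold none of these letters.

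The first comparison asks what absence of the element does to these transcripts. In deletion embryos 9 of the 10 genes lay below control, with a median log2 fold change of -0.16, but 0 of 10 passed an adjusted p of 0.05 by the authors' DESeq2 Wald statistics with Benjamini-Hochberg adjustment over 18952 genes. Of all genes tested 0.976% passed, 51.7% lay below control, and the median of genes tested in both comparisons was -0.01. An unadjusted p under 0.05 was reached by 0 of the 10 genes and by 9.5% of all genes. No other tool was run, since no counts were used here.

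Among the spindle pole and pericentriolar genes, Aspm was at 0.804 times control (95% interval 0.606 to 1.07), a log2 fold change of -0.31 (SE 0.21, adjusted p = 0.703, DESeq2). Wdr62 was at 0.891 times control (95% interval 0.693 to 1.15). Cdk5rap2 was the exception, at 1.05 times control (95% interval 0.937 to 1.17). All 3 intervals include no change.

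The 5 genes of centriole assembly ranged from -0.28 to -0.11 on the log2 scale. Stil was at 0.822 times control (SE 0.18 on the log2 scale, adjusted p = 0.674, DESeq2). Cenpj was at 0.863 times control (SE 0.12 on the log2 scale) and had the lowest adjusted p of the 10 genes, 0.622. Cep135 was at 0.896 times control. Cep152 was at 0.919 times control, and its partner Cep63 at 0.927 times control. The values in this group differed from each other by less than their intervals are wide.

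Mcph1, which also takes part in the DNA damage response, was closest to control among the 9 genes below it, at 0.950 times control (95% interval 0.836 to 1.08). Cit, which in neurons also gives a shorter form without the kinase domain, was at 0.881 times control (95% interval 0.722 to 1.08). The gene-level value does not separate these forms. In bulk tissue, fewer cells that express a gene and less RNA for each such cell cannot be told apart, here and in all results below.

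**Figure D2:**
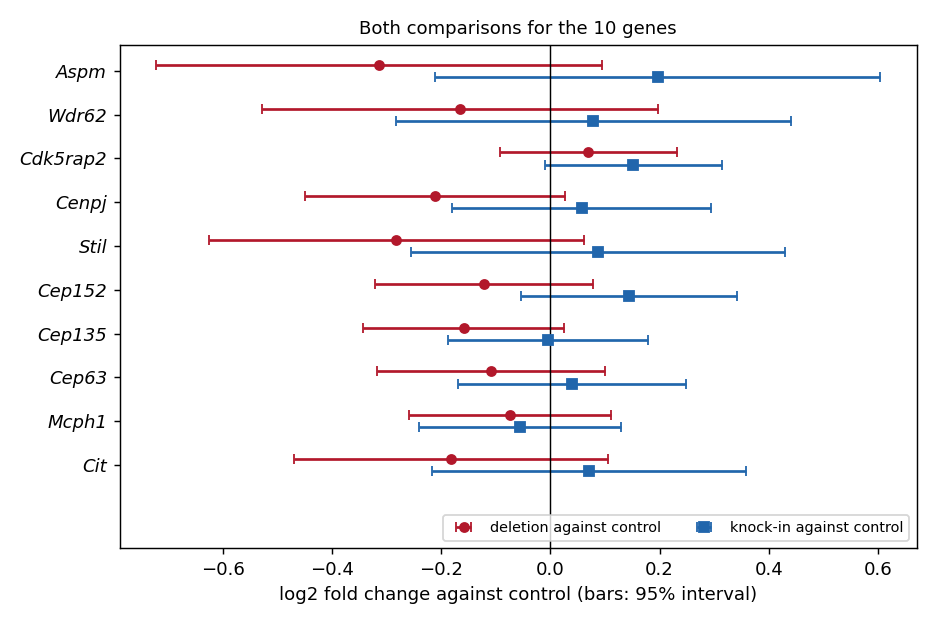
The log2 fold change against control (horizontal axis) of each gene for deletion (circles) and knock-in (squares), with 3 libraries per group and bars for the 95% interval. In the deletion 9 of 10 circles lie below 0, in the knock-in 8 of 10 squares lie above 0, and every bar includes 0.

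The second comparison asks the same of embryos with 1 human allele. In knock-in embryos 8 of the 10 genes lay above control, with a median log2 fold change of 0.07, and 0 of 10 passed the threshold by the same test over 21222 genes. Of all genes tested 0.137% passed and 51% lay above control. An unadjusted p under 0.05 was reached by 0 of the 10 genes and by 6.92% of all genes. The same 3 control libraries serve both comparisons, so the values of a gene under deletion and under knock-in are not independent.

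Aspm was at 1.15 times control (95% interval 0.863 to 1.52), a log2 fold change of 0.20 (SE 0.21, adjusted p = 0.883, DESeq2). Cdk5rap2 was at 1.11 times control (95% interval 0.993 to 1.24) and had the lowest adjusted p of the 10 genes here, 0.750. Cep152 was at 1.11 times control (95% interval 0.964 to 1.27). Both are measured more precisely than Aspm, as described below.

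The remaining genes were nearer to control. Stil was at 1.06, Wdr62 at 1.06, Cit at 1.05, Cenpj at 1.04 and Cep63 at 1.03 times control. Cep135 was at 0.997 times control, and Mcph1, the lowest, at 0.962 times control (95% interval 0.847 to 1.09). Every interval of the 10 genes includes no change, and together they run from 0.822 to 1.52 times control.

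All 10 genes are autosomal. In the knock-in the Y-linked genes Eif2s3y (log2 fold change -27.20, SE 3.91, which is no measured ratio because the knock-in level computed from it is near 0) and Ddx3y (-10.89, SE 2.68) fell, past an adjusted p of 0.05 by the DESeq2 Wald statistics. In the deletion the 3 Y-linked genes tested also lay below control, at -1.26 to -1.48 on the log2 scale with 0 past the threshold. Their summed level was 5697 for control, 2214 for deletion and 1.69 for knock-in embryos. No label used here gives sex, and a difference of genotype and a difference of sex cannot be told apart in the knock-in comparison. The part of sex in the values of the deletion was not tested.

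The third comparison sets deletion against knock-in directly, as the difference of the log2 fold changes. All 10 genes were lower in the deletion than in the knock-in, with a median difference of -0.25, against 52.2% of all genes lower and a median of -0.01 over the 18928 genes tested. With the SEs added as if the estimates were independent, 0 of 10 genes passed (adjusted p = 0.9998 for each, normal test of the difference of DESeq2 estimates), and 0.00528% of all genes did. That SE is too wide where control libraries are shared. With a correlation of 0.5 between the estimates, which equal groups with a shared control give, 0 of 10 passed again, the lowest adjusted p was 0.311 and 0.0475% of all genes passed. At this setting 4 of the 10 genes and 10.3% of all genes had an unadjusted p under 0.05. The 3 Y-linked genes tested were higher in the deletion than in the knock-in. Genotype and sex therefore cannot be told apart in this comparison either.

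The largest difference was that of Aspm, -0.51 (SE 0.29, or 0.21 with the correlation). It was followed by Stil with -0.37, Cenpj and Cep152 with -0.27 each, Cit with -0.25 and Wdr62 with -0.24. Cep135 (-0.15), Cep63 (-0.15), Cdk5rap2 (-0.08) and Mcph1 (-0.02) were the smallest. Neighbours in this order differ by less than the SE of either.

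The order by statistic was different. Cep152 came first, lower than all but 1.42% of the 18928 genes (unadjusted p = 0.0634, or 0.00865 with the correlation, normal test of DESeq2 estimates). Aspm was at 2.11%, Cenpj at 3.19% and Stil at 4.14% of the ranking of all genes, while Mcph1 was at 45.8%. With the correlation, the intervals of Aspm, Stil, Cenpj and Cep152 exclude 0 without adjustment and those of the other 6 genes include it. Over all genes the statistic of the difference had an SD of 1.20 with the correlation and 0.852 without it. That spread is wider with the correlation, and narrower without it, than the normal test takes for unchanged genes. The intervals were not rescaled, and the cause was not tested.

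**Figure D3:**
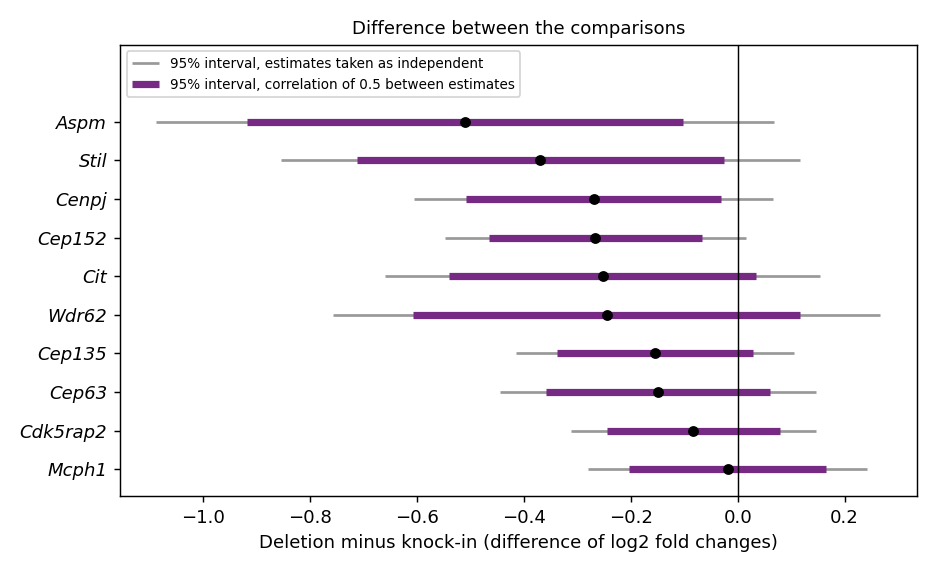
Deletion minus knock-in on the log2 scale (horizontal axis) for each gene, with points for the difference, thin bars for the 95% interval with independent estimates and thick bars for that with a correlation of 0.5. All 10 points lie below 0, from -0.51 for Aspm to -0.02 for Mcph1, and 4 of the thick bars end below 0.

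The genes differ in the SE of their fold change, which is the record of error left in the tables. Aspm had an SE of 0.21 in the deletion comparison, 2.28 times the median of the 1000 genes nearest to it in baseMean and larger than that of 96.6% of them. Stil (77.8%), Cit (76.8%), Wdr62 (74.4%) and Cenpj (62.0%) were also above the middle of genes of similar level. In contrast, Mcph1 (5.70%), Cep152 (12.1%), Cep135 (16.3%) and Cdk5rap2 (39.3%) had small SEs for their level, and Cep63 was near the middle at 48.3%. Genes with larger SEs also had larger differences between deletion and knock-in (Spearman's rho of 0.73 over the 10 genes, a description, since all share the same libraries).

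These SEs set what could be called. The smallest statistic called over all genes was 3.49 for deletion against control and 3.99 for knock-in against control. At its SE, Aspm would have had to fall to 0.604 times control to be called in the deletion or to reach 1.78 times control in the knock-in. Cdk5rap2 would have needed 0.818 and 1.26 times control, and Cep135 0.796 and 1.30. With 3 libraries per group, smaller measured changes would not have been called. The size of a true change that could be detected was not computed, so the values above do not show that the genes are unaffected.

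**Figure D4:**
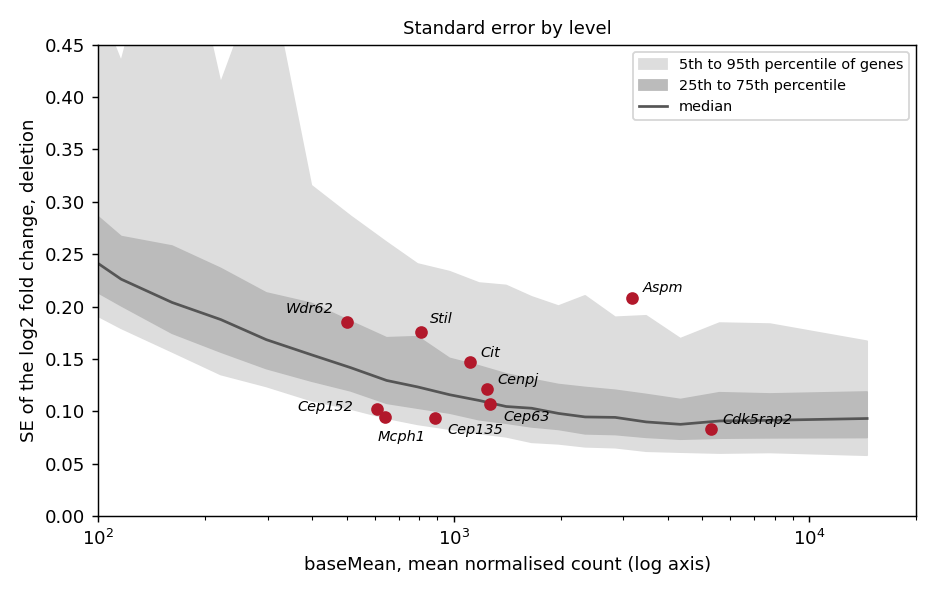
SE of the log2 fold change in the deletion comparison against baseMean (log axis), with points for the 10 genes and bands for all genes tested, in 25 groups of similar baseMean. Aspm lies above the band that ends at the 95th percentile, and Mcph1, Cep152 and Cep135 lie below that of the 25th to 75th percentile.

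Other genes of the same machinery were examined in 7 lists, 112 genes in all, with some genes in more than 1 list. These lists too were chosen with earlier results of these data known. In the deletion 90 of the 112 lay below control with a median of -0.09, and in the knock-in 82 lay above it with a median of 0.08. The number that passed was 0 in either comparison and in their difference. The shares of all genes that passed were 0.976% in the deletion, 0.137% in the knock-in and 0.00528% in the difference. An unadjusted p under 0.05 was reached by 7 of the 112 in the deletion, 1 in the knock-in and 6 in the difference, against 9.5%, 6.92% and 2% of all genes. With the correlation of 0.5 it was reached by 35 of the 112 in the difference, against 10.3% of all genes, and 0 passed the adjusted threshold.

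The cytokinesis list holds genes of the process in which Cit acts, and the condensin list holds condensin subunits, not all of them of condensin II. All 15 cytokinesis genes lay below control in the deletion (median -0.27) and above it in the knock-in (median 0.17). For the kinesin Kif20b of the midbody, the lowest statistic of the difference in this list, the values were -0.29 (SE 0.17) and 0.22 (SE 0.17), and for Kif14, the highest, -0.17 and 0.16. The 8 condensin subunits had medians of -0.18 and 0.14, with Smc4 at -0.34 and 0.17 and the condensin II subunit Ncaph2 at 0.12 and 0.14. Mcph1, which restrains condensin II, was at -0.07 and -0.06.

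Of 24 spindle genes 20 lay below control in the deletion (median -0.16) and 18 above it in the knock-in (median 0.06). Nusap1, which bundles spindle microtubules, was at -0.47 (SE 0.17, adjusted p = 0.212, DESeq2) and 0.06, and Haus8 of the augmin complex at 0.03 and -0.09. The 30 other microcephaly loci had medians of -0.12 and 0.12, with the kinetochore motor Cenpe at -0.39 (SE 0.20) and 0.21 (SE 0.20) and Wdfy3 at 0.10 and -0.05.

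Centriole duplication genes, which work beside Stil, Cep152 and Cenpj, had medians of -0.08 and 0.02 over 20 genes. Centrin 2 (Cetn2) was at -0.25 and 0.02 and Cep120 at -0.10 and -0.15. The 20 genes of the pericentriolar material, the compartment of Cdk5rap2, had medians of -0.05 and 0.01, with Cntln at -0.21 and 0.09 and the centrosome linker gene Cep250 at 0.08 and -0.06. Loss of centrosomes is known to act through Usp28, Trp53bp1 and p53. The 10 genes of that list had medians of -0.02 and 0.06. Sesn2 was at -0.06 and 0.18, and the cell death gene Bbc3 at 0.28 (SE 0.15) and 0.08.

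**Figure D5:**
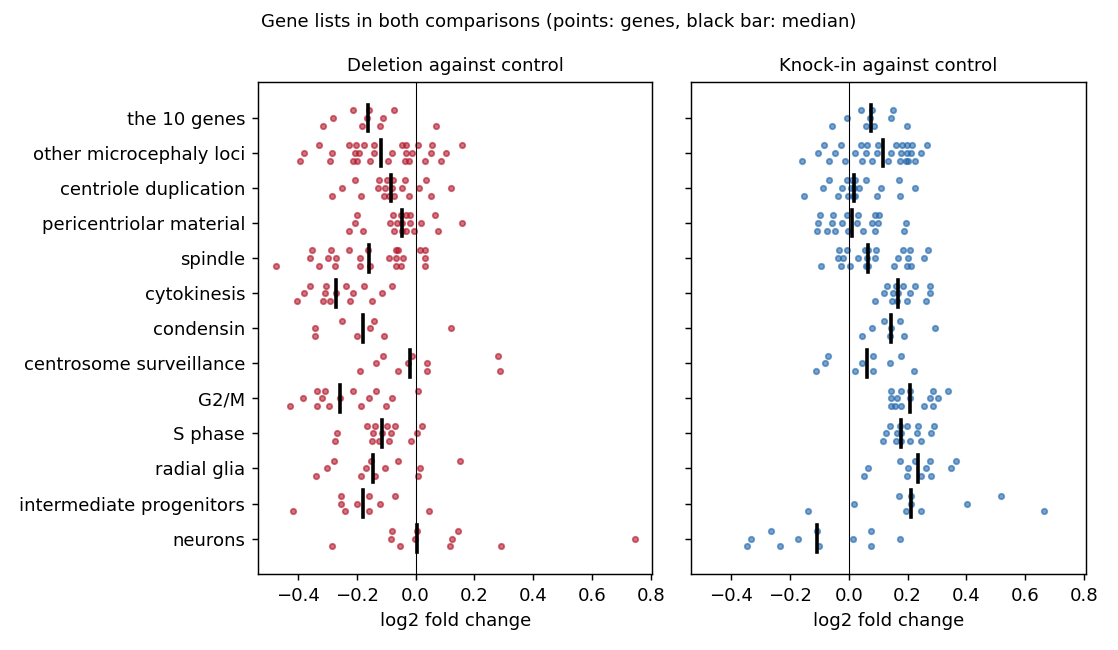
The log2 fold change of each gene (points) in 13 lists, for the deletion (left) and the knock-in (right), with a black bar for the median of the list. All lists but that of neurons have medians below 0 on the left and above 0 on the right, from -0.27 (cytokinesis) to -0.02 (centrosome surveillance) on the left.

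Markers of dividing cells and of progenitors lay on the same sides of control as most of the 10 genes, and their part in the values above was not tested. Of 15 G2/M genes 14 lay below control in the deletion (median -0.26), with cyclin B1 (Ccnb1) at -0.43 (SE 0.21) and Ube2c at -0.38 (SE 0.22). In the knock-in all 15 lay above it (median 0.21), with Cdk1 at 0.34 (SE 0.20) and Aurkb at 0.28 (SE 0.19). The summed count of these genes, computed by genotype as above, was 55484 for control, 45650 for deletion and 63571 for knock-in embryos. For 15 S phase genes the medians were -0.11 and 0.18, and the sums 31808, 29284 and 36196. Rrm2 and Ccne2 were at -0.27 and -0.28 in the deletion, and E2f1 and Mcm3 at 0.18 and 0.29 in the knock-in.

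Of 12 radial glia markers 9 lay below control in the deletion (median -0.14) and 12 above it in the knock-in (median 0.24), with sums of 91378, 83372 and 104486 in control, deletion and knock-in. The progenitor factor Sox2 was at -0.30 (SE 0.14) and Fabp7 at -0.34 (SE 0.16) in the deletion, and Prom1 was at 0.35 (SE 0.19) and the intermediate filament gene Nes at 0.25 (SE 0.14) in the knock-in. Intermediate progenitor markers had 9 of 10 below and 9 of 10 above, with medians of -0.18 and 0.21, and sums of 36834, 33029 and 42280. Elavl4, which neurons also express, and Dll3 were at -0.25 and -0.42 in the deletion. Neurog2 and Gadd45g were at 0.52 and 0.40 in the knock-in. Neuronal markers had 5 of 11 below control in the deletion (median 0.01) and 4 of 11 above it in the knock-in (median -0.11), with sums of 342906, 359944 and 321980. Neurod2 was at 0.29 in the deletion, and Snap25 and Stmn2 at -0.33 and -0.26 in the knock-in. The numbers of progenitor, neuronal and dividing cell genes past the threshold were 0 in both comparisons, where 0.976% and 0.137% of all genes passed.

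For markers of other cell types, some genes passed the threshold in the deletion and 0 did in the knock-in. The shares of all genes tested that passed were 0.976% and 0.137%. Meningeal markers lay above control in 11 of 11 in both comparisons, with medians of 0.82 and 0.45, and 6 rose past the threshold in the deletion, with Aldh1a2 at 1.13 and Foxd1 at 1.20. In the knock-in Col1a2 was at 0.64 and Lum at 0.54. The sums of the list were 37327 for control, 68282 for deletion and 54296 for knock-in embryos. Ganglionic eminence markers lay below control in 13 of 13 in both (medians of -0.77 and -0.55, sums of 39045, 26555 and 29205), and 8 fell past the threshold in the deletion, with Sp8 at -0.81 and Dlx5 at -1.06. In the knock-in Gad2 and Gad1, which inhibitory neurons of the cortex also express, were both at -0.67. Endothelial and pericyte markers lay above control in 12 of 12 in both (medians of 0.47 and 0.34, sums of 18405, 25999 and 22785), with Flt1 at 0.65 and Vtn at 0.86 past the threshold in the deletion and Kcnj8 at 0.39 and Tie1 at 0.45 in the knock-in, not past it. Microglial markers (medians of 0.43 and 0.27, sums of 4194, 5384 and 4993) had 0 genes past it, with Cx3cr1 at 0.51 and C1qa at 0.56 in the deletion and C1qb at 0.39 and Csf1r at 0.34 in the knock-in. Red cell markers lay below control in 8 of 9 in the deletion and above it in 8 of 9 in the knock-in (sums of 131488, 110510 and 152970), with Bpgm past the threshold in the deletion at -0.27 and Hba-a1 at -0.42, not past it. In the knock-in Hbb-bs was at 0.30 and Hbb-y at 2.41. No marker of these lists was at 0 in the tables. The part of any of these cell types in the values of the 10 genes was not tested.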

How the data were processed

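RNA was extracted from cortex, and libraries were made from mRNA with a capture kit, per the labels' protocols. Bowtie2 2.4.4, STAR 2.7.9a, cutadapt and the builds mm10 and mm9 appear in the submitters' processing notes without roles. Per the file headers, the authors used DESeq2 and deposited a log2 fold change, its standard error, a Wald score and p-values for each comparison. The deposited baseMean is a signal, the mean normalised count over all samples.

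The 6 columns headed FPKM in each table are other than that unit: all 235530 and 242196 values equal baseMean times a normal draw (seed 42, mean 1, SD 0.1, relative tolerance 1e-09). They were not used, so depth and spread by library are unknown. Deposited p-values disagreed with their statistic for 930 knock-in genes and 4 deletion genes (log10 tolerance 1e-04) and fold changes for 25 and 22, but for 0 of the 10 members. Log2 fold changes were therefore statistic times SE, with normal p and Benjamini-Hochberg adjustment over genes that have a deposited adjusted p.

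The members and lists were chosen with earlier results of these data known. Named genes were all members, in each of the 7 machinery lists the highest and lowest statistic of the difference, and in cell lists the 2 largest statistics of each comparison. A gene chosen by this rule is not reported here. No source says whether libraries of a genotype came from separate litters, so p-values measure the spread between these libraries. The steps were tested on simulated data. Tables were handled with pandas 2.3.3, tests with scipy 1.17.1 and numpy 2.4.6, and plots with matplotlib 3.10.9, in Python 3.11.15.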

Additional observations from a re-analysis of the deposited data

Results flagged for a closer look

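Among the genes named here, the Y-linked gene Eif2s3y differed between the comparisons by a test of the difference itself, with a deletion minus knock-in value of 25.94 on the log2 scale (SE 5.40, adjusted p = 0.0292, normal test of DESeq2 estimates). Its level in the knock-in, computed from the fit, was near 0, so the size is no measured ratio.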

How the results depend on the processing

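Of the 10 genes, 0 were called under each alternative run. These were the authors' deposited values, adjustment over every gene, thresholds of 0.1 and 0.01, a baseMean of at least 50 and centring on the median. For the difference, a correlation of 0.5 was also run. Every direction was the same, but only centring could have changed one, since the other settings leave the fold changes of these genes as they are. With centring the difference of Mcph1 went from -0.02 to -4.2e-04. Counts over all genes depended on the setting. In the deletion 185 genes became 115 with adjustment over every gene, 308 at a threshold of 0.1 and 75 at 0.01. In the knock-in 29 became 930 with the adjusted p of the authors' deposited table, 58 at 0.1 and 16 at 0.01. In the difference 1 became 21 with the fold changes of the authors' deposited table, 9 with the correlation, 0 with adjustment over every gene and 0 at 0.01, while 378 genes had an unadjusted p under 0.05. The cause of these changes was not tested, beyond the fewer or more genes that a threshold passes by construction. In a shorter promoter window, from 150 bases before the start site to 50 bases after it, an E2F sequence was found in 1 gene, not 2. A CHR or its variant was found there in 2 genes, not 3, and CCAAT in 5 as before. Coding length from the annotation was chosen after seeing the data, since a protein table was not used here. No paired analysis was possible because values by library were not held, and leaving out replicates was not run for the same reason.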
